A study of Ctenopharyngodon idella with 6 samples.

Results

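The microRNAs numbered miR-15, miR-16 and miR-457 were examined in plasma exosomes of large and small grass carp (Ctenopharyngodon idella). Members were all known entries of the deposited table whose family number was one of these 3, whatever the species prefix, letter or arm, and 67 of the 2925 known entries qualified. Of these, 36 were numbered miR-15, 23 miR-16 and 8 miR-457. The fish were 10 months old and came from one pond that had been stocked at high density for 9 months. Libraries L1, L2 and L3 (the large fish group) were made from plasma pooled from 2 fish each, 6 fish in all, and S1, S2 and S3 (the small fish group) from plasma pooled from 5 fish each, 15 fish in all. The fish were the largest and the smallest of a random catch. No treatment or genetic change was applied to set the groups apart, and fish size, sampled group and pool size cannot be told apart. The genetic sex of the fish was not determined. Exosomes were collected by ultracentrifugation, and 3 ng of their RNA entered each library. The comparison asked whether the exosomal miRNA cargo differed between fish that had diverged in growth.

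A microRNA (miRNA) is a short RNA that guides Argonaute proteins to messenger RNAs, mostly by pairing of its seed, bases 2 to 8 from its 5′ end, and lowers their translation or stability. The miR-15 and miR-16 family shares a seed, and in mammals its members repress cyclins and other cell cycle genes as well as the anti-apoptotic gene BCL2. miR-16 is abundant in mammalian blood, including red cells and plasma. Each hairpin gives a 5p and a 3p strand, and only the 5p strand of this family carries the family seed. miR-457 carries the same seed and is annotated in fish and some other vertebrates.

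The mature sequences of the 10 zebrafish entries are shown because zebrafish is also a cyprinid fish and its letters differed in level. Letters 15d, 15e and 16a occurred only under names of other species. They are written as DNA letters, as in the deposited table, with bases 2 to 8 in capitals.
dre-miR-15a-5p: tAGCAGCAcagaatggtttgtg
dre-miR-15b-5p: tAGCAGCAcatcatggtttgta
dre-miR-15c: aAGCAGCGcgtcatggttttc
dre-miR-16b: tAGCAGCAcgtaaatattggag
dre-miR-16c-5p: tAGCAGCAtgtaaatattggag
dre-miR-457a: aAGCAGCAcatcaatattggca
dre-miR-457b-5p: aAGCAGCAcataaatactggag
dre-miR-15a-3p: cAGGCCGTactgtgctgcggca
dre-miR-16c-3p: tCCAATATtgctcgtgctgctga
dre-miR-457b-3p: tCCAGTATtgctgttctgctgt
Positions are counted from 1 at the 5′ end of the first sequence named. From dre-miR-16b to dre-miR-16c-5p the only change was C9T, 1 base past the seed. From dre-miR-15b-5p to dre-miR-15a-5p the changes were T11G, C12A and A22G, all outside the seed. From dre-miR-15b-5p to dre-miR-15c there were 5 changes over 21 shared positions (T1A, A8G, A10G, G20T and T21C), and A8G altered the last base of the seed. From dre-miR-16b to dre-miR-457a the changes were T1A, G10A, A12C, A21C and G22A, so this pair of family numbers shared the whole seed.

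The seed divided the 67 entries into 4 classes. The family seed AGCAGCA stood at bases 2 to 8 of 52 entries, and 4 entries carried AGCAGCG there: dre-miR-15c, fru-miR-15b of pufferfish, gmo-miR-15b-5p of Atlantic cod and ssa-miR-15c-5p of Atlantic salmon. In 4 further entries (ccr-miR-457a, ccr-miR-457b, ssa-miR-15a-5p and ipu-miR-16c) the core AGCAGC was displaced by at least 1 base from its usual place, and 7 entries were 3p arms. The 7 of these 8 sequences not shown above follow, so that each departure from the usual seed can be seen. Both entries that passed the test were among the 8, 1 of 4 with AGCAGCG and 1 of 4 with a displaced core. The other 6 did not pass, and 2.82% of all 1807 tested entries passed as higher. Whether the seed goes with a change was not tested.
fru-miR-15b: tAGCAGCGcatcatggtttgta
gmo-miR-15b-5p: tAGCAGCGcatcatggtttgaa
ssa-miR-15c-5p: tAGCAGCGcatcatggtttga
ccr-miR-457a: aGCAGCACatcaatattggc
ccr-miR-457b: aGCAGCACataaatactggag
ssa-miR-15a-5p: cGTAGCAGcacgtcatggtttgt
ipu-miR-16c: cCAGCAGCacggtcaatactg
Compared from the core onward without gaps, the entry ipu-miR-16c of channel catfish differed from every zebrafish 5p entry at 8 or more bases. By this count its nearest ones were dre-miR-15a-5p and dre-miR-16b. An inserted base shifts all later ones in such a count, and an alignment with gaps was not made. Hairpin positions in the grass carp genome were not analysed here.

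Values were counts per 1000000 miRNA counts of the library (CPM), in which reads with the same molecular identifier had been counted as 1. Divided by the step of its library, every value above 0 came within 0.02 of a whole count, and the totals so recovered lay between 5272418 (L1) and 11524535 (S2). A value of 0 allowed up to 0.260 CPM in S2 and 0.569 CPM in L1, which covers counting error only. Members carried 31 of the 157 species prefixes. Since a read may count toward more than 1 name, CPM of different names must not be added. The 67 entries held 67 different sequences of 19 to 24 bases but only 41 distinct sets of 6 values, since 39 names shared their values with at least 1 other name. The p values measure the spread between pools of fish, not between single fish.

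miR-15c, miR-16c and miR-16b were the leading members, none of them below 3909 CPM in any library. Ranked by the highest entry of each of 438 family numbers, miR-15 stood at 8 and miR-16 at 9 over the mean of all libraries, and miR-457 at 24. The rank of miR-15 was 5, 5 and 7 in the large fish libraries and 11, 9 and 11 in the small fish libraries. The rank of miR-16 was 7, 8 and 10 in the former and 9, 7 and 9 in the latter, so miR-15 was above miR-16 in every large fish library and below it in every small fish library.

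**Figure D1:**
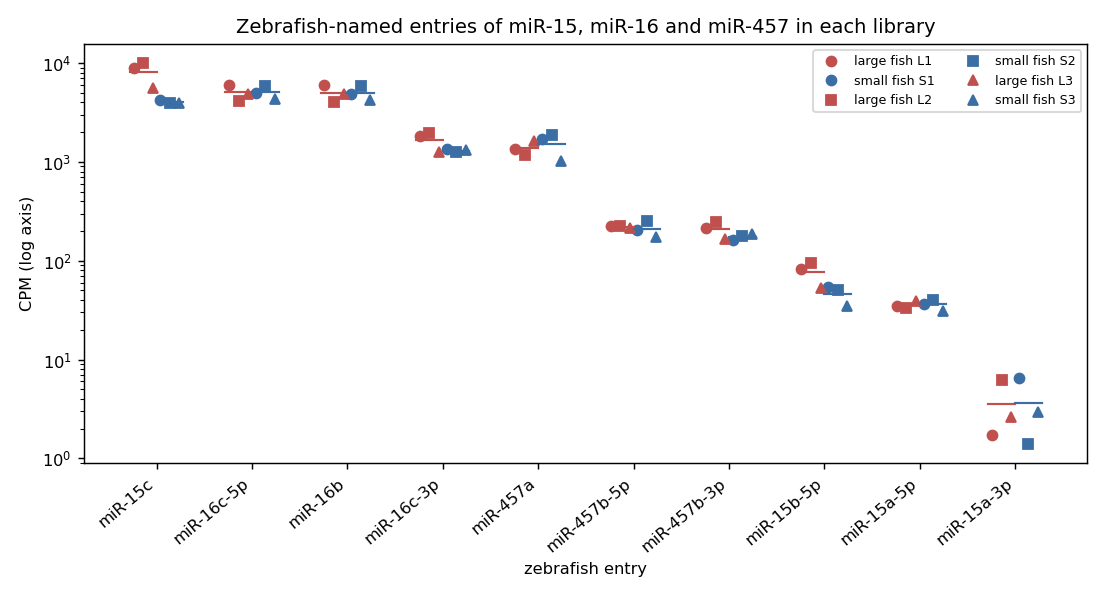
CPM of the 10 zebrafish entries (log axis) in each library, large fish in red and small fish in blue, with horizontal lines at the arithmetic mean of each group of 3 libraries. miR-15c is the only one of the 10 whose large fish libraries, 5660 CPM and above, all lie above its small fish libraries.

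Among the zebrafish entries the order of the means over 6 libraries was miR-15c (6105 CPM), miR-16c-5p (5061), miR-16b (4971), miR-16c-3p (1494), miR-457a (1466), miR-457b-5p (216), miR-457b-3p (194), miR-15b-5p (61.8), miR-15a-5p (35.9) and miR-15a-3p (3.58). The plot of levels by entry shows these steps. The ranges over libraries overlapped between miR-15c, miR-16c-5p and miR-16b, between miR-16c-3p and miR-457a, between both arms of miR-457b, and between miR-15b-5p and miR-15a-5p. No other neighbours in this order overlapped. These levels are of RNAs of nearly equal length and were not scaled by length.

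miR-15c was higher in large fish, though its call depended on single libraries and on the processing. The level of dre-miR-15c was 8830 CPM in L1, 10016 in L2 and 5660 in L3, against 4255 CPM in S1, 3909 in S2 and 3961 in S3. The large fish libraries all lay above the small fish libraries, and they spread far more widely among themselves, at 8169 ± 2252 against 4042 ± 187 (SD, n = 3 pools). Pools held 2 large or 5 small fish, and the part of pool size in this spread was not tested. The limma fit took the same variance for both groups. The log2 fold change on log2(CPM + 1), large minus small, was 0.97 ± 0.25 (SE), a fold of 1.97 with a 95% interval of 1.31 to 2.94, and limma gave an adjusted p of 0.0386 over 1807 tested entries. A higher amount of exosomes from one source and more of the miRNA in each exosome cannot be told apart in such libraries. The call was lost without L1 (adjusted p = 0.112, limma) and without L2 (0.0813), while without L3 the log2 fold change was 1.22. It was lost as well without any one of the small fish libraries, with adjusted p between 0.0950 and 0.112 (limma). Few calls of any entry were left in some of these fits. Of the 1807 entries, 308 were called with all libraries, 7 without L1, 1 without L2 and 365 without L3. Without S1, S2 and S3 the counts were 177, 178 and 26.

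The second entry that passed was ipu-miR-16c, of which few counts were seen. It was measured at 18.2, 18.5 and 29.0 CPM in large fish and at 12.6, 5.55 and 6.72 CPM in small fish, between 50 and 189 counts per library. The groups did not overlap, and L3 was the highest library, unlike for miR-15c, for which L3 was the lowest of the large fish libraries. Its log2 fold change was 1.35 ± 0.35 (SE), a fold of 2.54 with a 95% interval of 1.44 to 4.5, and the adjusted p was 0.0402 (limma). Leaving out 1 library kept this call only for S1 (adjusted p = 0.0477, limma), and without the others the adjusted p lay between 0.0731 and 0.124. The total calls of these fits are those given for miR-15c.

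Over all members, 62 entries with 36 distinct sets of values reached 1 CPM in 3 or more libraries and were tested. Of these, 2 (3.23%) passed as higher in large fish, against 2.82% of all 1807 entries, and 0 passed as lower, against 14.2%. Groups without overlap were found with large fish above in 4 members (6.45%), against 10.5% of all entries, and with large fish below in 0 members, against 29.6%. The 4 were dre-miR-15c, ipu-miR-16c and the pair gmo-miR-15b-5p and ssa-miR-15c-5p, which shared their values. At an unadjusted p under 0.05 (limma), 9 members (14.5%) in 5 sets of values were higher and 0 were lower. Among all entries, 587 of 1807 reached this level in either direction, a larger share. The edgeR tests and DESeq2 also called 0 members lower. The share of members called higher was near that of all entries, and the share called lower was below it.

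The median log2 fold change was 0.06 over the members and -0.26 over all tested entries, and the members ranged from -0.35 to 1.35. A positive value was found in 44 of 62 members (71.0%) and in 578 of 1807 entries (32.0%). Names that share their values are counted separately here, and by distinct sets of member values 22 of 36 were positive. The count by names rested in part on 1 library, since without S3 it was 22 of 62 members (35.5%) against 29.0% of all entries. The median of all entries was -0.05 with TMM scaling (trimmed mean of M values) and 0.09 after quantile normalization, a shift of over 0.1 on the log2 scale. With these scalings 58 and 56 of the 62 members were positive, against 46.7% and 55.7% of all 1807 entries. Relative to the median of all entries, dre-miR-15c stood at 1.23 and dre-miR-16b at 0.25. By number, the median over names was 0.31 for miR-15, 0.02 for miR-16 and -0.01 for miR-457. The miR-15 median was the value of 6 names that shared 1 set of values, with a mean of 2.45 CPM. The 5 entries not tested were cpo-miR-15b-5p, aca-miR-457-5p, abu-miR-457, ssa-miR-16a-3p and ssa-miR-16a-2-3p, none above 3 CPM in any library. Among them aca-miR-457-5p was listed at 1 to 4 counts in the large fish libraries and 7 to 20 in the small fish libraries.

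**Figure D2:**
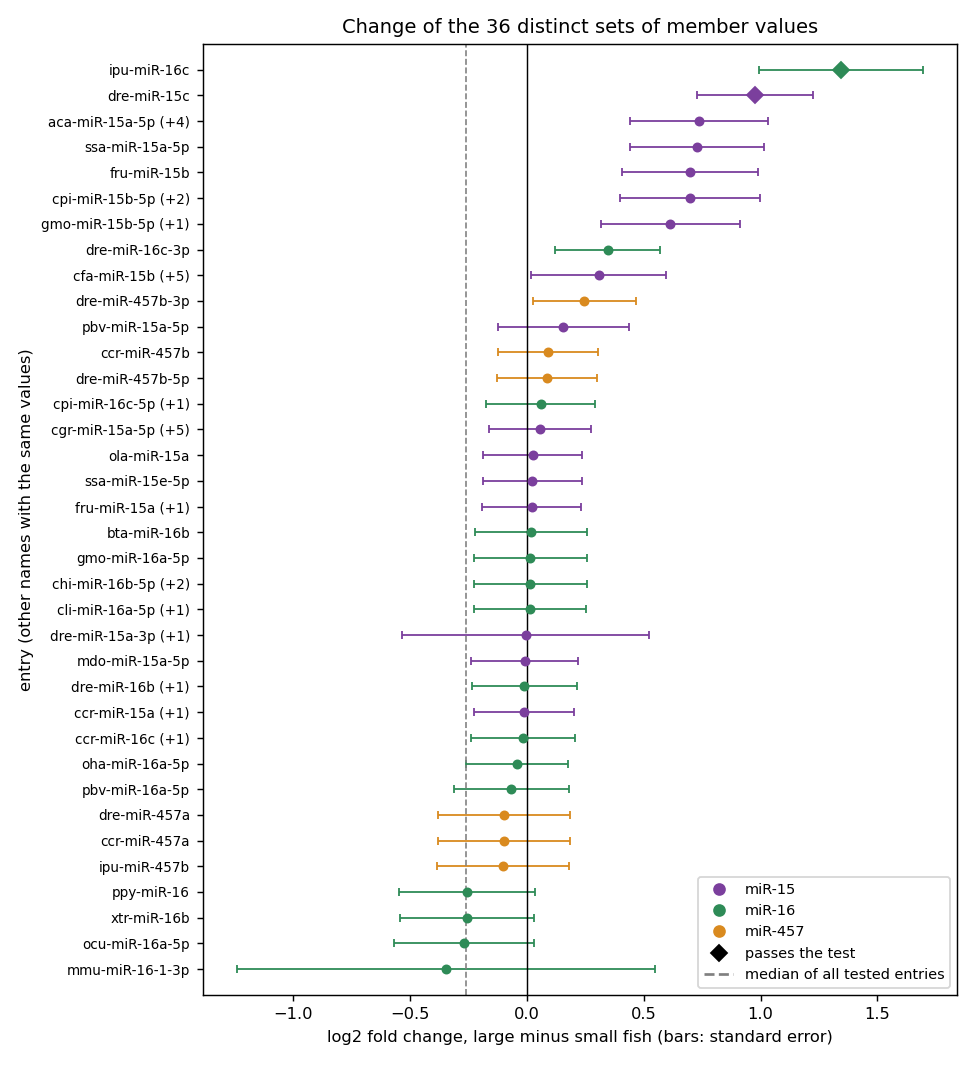
Log2 fold change (large minus small fish, horizontal axis, with SE bars from limma) of the 36 distinct sets of member values, coloured by family number, with a diamond where an entry passed and a dashed line at the median of all tested entries, -0.26. The sets of miR-15b and miR-15c sequences lie mostly between 0.61 and 0.97, and those of miR-15a, miR-16 and miR-457 5p sequences mostly near 0.

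Apart from ipu-miR-16c, no miR-16 entry passed in either direction. dre-miR-16b was measured at 5996, 4073 and 4823 CPM in large fish and 4867, 5816 and 4251 CPM in small fish, so the groups overlapped throughout and L2 was the lowest of the 6 libraries. Its log2 fold change was -0.01 with a 95% interval of -0.54 to 0.52 (limma adjusted p = 0.983), and it was 0.24 with TMM scaling and 0.20 after quantile normalization. dre-miR-16c-5p, 1 base away, was measured at 6075, 4153 and 4907 CPM in large fish and 4976, 5928 and 4327 CPM in small fish, close above miR-16b in each library. Pearson's r between them on log2(CPM + 1) was 1.00 over the 6 libraries, and whether the same reads stand behind both was not tested. As a fold, the interval for miR-16b ran from 0.690 to 1.43, so changes within it remain compatible with these 3 pools in each group.

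The entry named for the 3p arm of miR-16c did not vary together with dre-miR-16c-5p over these 6 libraries. Which grass carp hairpin gave the reads of either entry was not analysed. dre-miR-16c-3p was measured at 1831, 1965 and 1260 CPM in large fish and at 1340, 1252 and 1316 CPM in small fish, with L1 and L2 high and L3 among the small fish libraries. Its log2 fold change was 0.35 ± 0.22 (SE, limma adjusted p = 0.329). Over the 6 libraries its r with dre-miR-16c-5p was -0.12, and with dre-miR-15c it was 0.93. The ratio of the 3p to the 5p arm in L1, L2 and L3 was 0.301, 0.473 and 0.257, and in S1, S2 and S3 it was 0.269, 0.211 and 0.304, a log2 difference of 0.36 (exact permutation test, 2-sided p = 0.5).

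miR-15b and miR-15a, which differ at 3 bases outside the seed, were both rare. dre-miR-15b-5p was measured at 83.1, 95.03 and 52.9 CPM in large fish and at 54.2, 50.2 and 35.2 CPM in small fish, where only L3 fell below the highest small fish library, S1. Its log2 fold change was 0.70 with a 95% interval of -0.01 to 1.40 (limma adjusted p = 0.158). edgeR's exact test and DESeq2 on the recovered counts called it, with adjusted p of 0.0465 and 0.0207. dre-miR-15a-5p was measured at 34.7, 33.5 and 38.8 CPM in large fish and 36.8, 40.3 and 31.3 CPM in small fish. The groups overlapped, and its log2 fold change was -0.01 with a 95% interval of -0.51 to 0.49 (limma adjusted p = 0.983). miR-15b exceeded miR-15a in all 6 libraries, by 2.39, 2.83 and 1.36 times in large fish and 1.47, 1.25 and 1.12 times in small fish, with a log2 difference between groups of 0.71 (exact permutation test, 2-sided p = 0.2). The 3p arm dre-miR-15a-3p was rarer still, at 1.71, 6.27 and 2.61 CPM in large fish and 6.58, 1.39 and 2.96 CPM in small fish. It had 9 to 48 counts a library and no order between the groups.

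The other names with the AGCAGCG seed were far rarer than dre-miR-15c. fru-miR-15b, which differs from dre-miR-15c by A1T, G10A, T20G and C21T, was measured at 108, 113 and 71.5 CPM in large fish and 72.9, 63.4 and 43.4 CPM in small fish. Here too L3 lay just under S1, and the log2 fold change was 0.70 (limma adjusted p = 0.147). gmo-miR-15b-5p and ssa-miR-15c-5p were both listed at 26.7, 21.9 and 21.6 CPM in large fish and 20.3, 15.97 and 10.1 CPM in small fish, without overlap, with a log2 fold change of 0.61 (limma adjusted p = 0.194). ssa-miR-15a-5p, with its core moved by 2 bases, was measured at 106, 110 and 69.5 CPM against 70.3, 58.3 and 42.6 CPM, with a log2 fold change of 0.73 (limma adjusted p = 0.131). These entries had log2 fold changes near that of miR-15b, the zebrafish entry nearest to them in sequence, at levels far below miR-15c.

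miR-457, the relative with the same seed, overlapped between the groups for each letter and arm measured in zebrafish. dre-miR-457a was measured at 1365, 1182 and 1647 CPM in large fish and 1711, 1873 and 1016 CPM in small fish, and S3 was the lowest library although S2 was the highest. Its log2 fold change was -0.10 with a 95% interval of -0.76 to 0.57 (limma adjusted p = 0.843), and it was 0.15 with TMM scaling and -0.07 after quantile normalization. dre-miR-457b-5p was measured at 222, 227 and 214 CPM in large fish and at 205, 254 and 173 CPM in small fish. Its log2 fold change was 0.09 with a 95% interval of -0.42 to 0.59 (limma adjusted p = 0.805). The common carp names, whose core starts 1 base earlier, had nearly the zebrafish values, with log2 fold changes of -0.10 for ccr-miR-457a and 0.09 for ccr-miR-457b (limma adjusted p = 0.842 and 0.794). dre-miR-457b-3p was measured at 217, 249 and 168 CPM in large fish and 161, 179 and 188 CPM in small fish, again with L3 among the small fish libraries, and its log2 fold change was 0.25 (limma adjusted p = 0.492).

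A ratio within a library is free of any single scaling factor for that library, though not of quantile normalization. Over the 5 pairs of zebrafish entries compared, the smallest p that 3 against 3 libraries allow is 0.1, so none could pass. The ratio of miR-15c to miR-16b was 1.47 in L1, 2.46 in L2 and 1.17 in L3, against 0.874 in S1, 0.672 in S2 and 0.932 in S3. It was above 1 in every large fish library and below 1 in every small fish library, a log2 difference of 0.99 (exact permutation test, 2-sided p = 0.1, 0.5 after Benjamini-Hochberg adjustment over 5 ratios). Without L2, the library with the highest ratio, the log2 difference was 0.68. Whether such a ratio falls above or below 1 depends on the miR-16 name taken. The human name hsa-miR-16-5p, with a mean of 1676 CPM, was below dre-miR-15c in every library. The ratio of miR-457a to miR-16b was 0.228, 0.290 and 0.341 in large fish, against 0.352, 0.322 and 0.239 in small fish, a log2 difference of -0.09 (exact permutation test, p = 0.7), and its sign turned without L1 (0.07) and without S1 (0.03). The ratio of the arms of miR-457b gave a log2 difference of 0.16 (exact permutation test, p = 0.5).

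**Figure D3:**
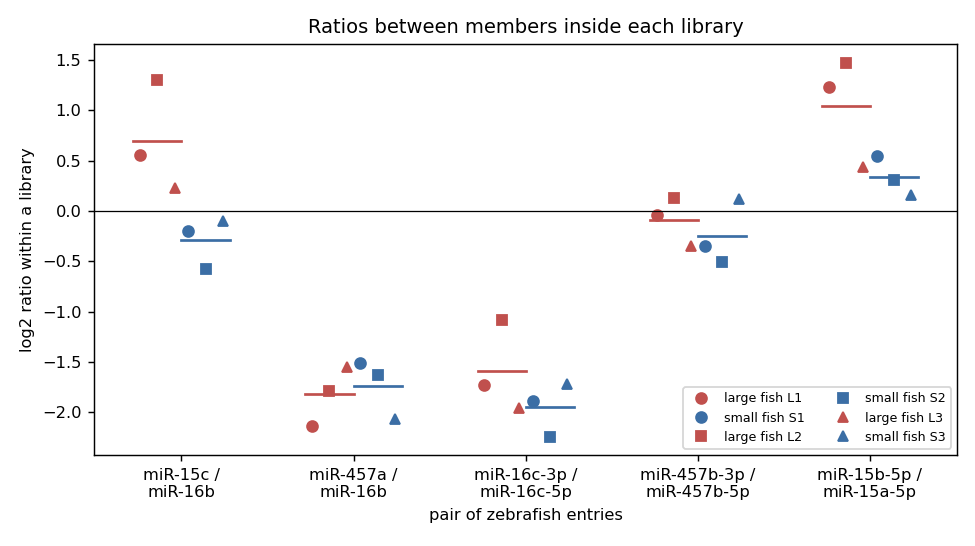
Log2 ratio (vertical axis) between 2 zebrafish entries inside each library for 5 pairs, large fish in red and small fish in blue, with lines at group means. Only miR-15c over miR-16b separates the groups, at 0.23 and above in large fish and at -0.10 and below in small fish.

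The members did not all vary alike from library to library. The 6 libraries differed in depth and in group, and the r values below were taken without removing the group difference. Pearson's r of log2(CPM + 1) with miR-15c was 0.93 for miR-16c-3p, 0.92 for miR-15b-5p and 0.83 for miR-457b-3p. With miR-16b it was -0.08, with miR-457a -0.32 and with miR-15a-5p -0.28. miR-457a and miR-15a-5p, in contrast, had an r of 0.97. L2 was the highest library for miR-15c, miR-15b-5p, miR-16c-3p and miR-457b-3p and the lowest for miR-16b and miR-16c-5p. The profiles by library show both sets, which were put together after their values had been seen.

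**Figure D4:**
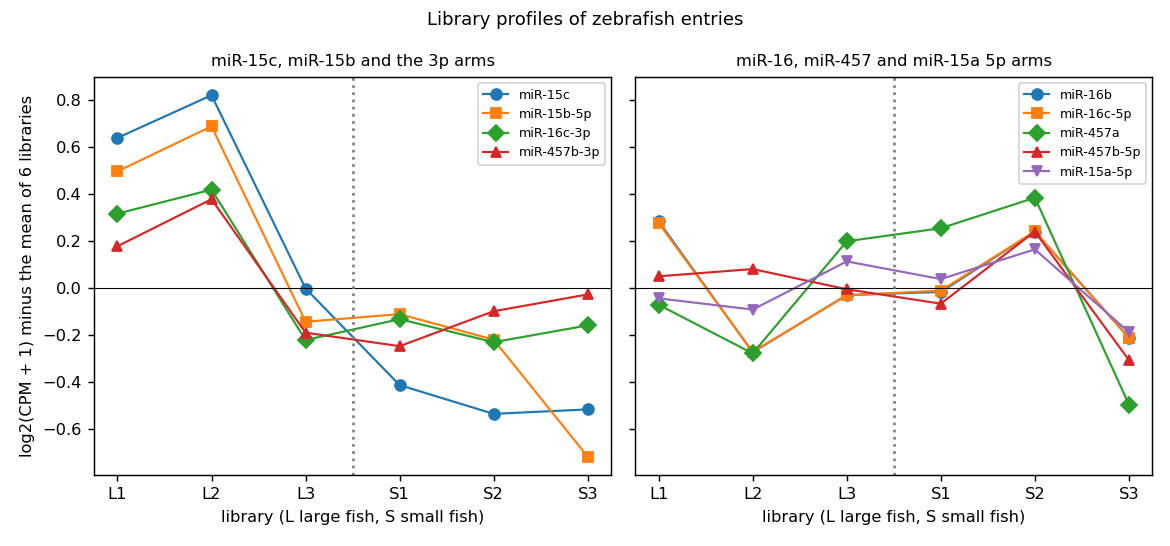
Log2(CPM + 1) of 9 zebrafish entries in each library minus their mean over 6 libraries (vertical axis), with the libraries in label order, which carries no time or dose, and lines that only join the points of 1 entry. Entries in the left panel peak in L2 at 0.38 to 0.82, and those in the right panel do not set large fish apart from small fish.

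Other families were compared with 3 members by Pearson's r over the 6 libraries, among 146 families, as a description only. Those most like dre-miR-15c were miR-3964 (0.97), miR-142 (0.95) and miR-223 (0.93). Those most like dre-miR-16b were miR-126 (0.96), miR-7147 (0.93) and miR-144 (0.86), and those most like dre-miR-457a were miR-144 (0.83), miR-2188 (0.81) and miR-497 (0.70). Some marker families moved between the groups as well. Each family was taken by its 1 entry with the highest mean. Entries were added across families, and whether a read counted toward more than 1 of them, such as miR-1 and miR-206, was not tested. The summed level of 4 leukocyte families (miR-142, miR-150, miR-155 and miR-223) was 9577 to 11975 CPM in large fish and 3386 to 4637 CPM in small fish, and 3 of the 4 passed as higher (limma). The 3 skeletal muscle families (miR-1, miR-133 and miR-206) summed to 2374 to 6609 CPM in large fish and 10585 to 17496 CPM in small fish, and all 3 passed as lower. The erythroid families miR-144, miR-451 and miR-486 summed to 3118 to 3275 CPM in large fish and 1411 to 3344 CPM in small fish. miR-144 and miR-451 did not pass (limma adjusted p = 0.931 and 0.365), and miR-486, at or near 0 in every library, was not tested. miR-126, of thrombocytes and endothelium, was at 7395 to 14401 CPM in large fish and 8771 to 13548 CPM in small fish, and did not pass (limma adjusted p = 0.983). The part of these families' sources in the result for miR-15c was not tested.

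A name was no sure guide to the sequence behind it. Of the 60 members on the 5p arm, 36 carried the letter of the zebrafish entry nearest in sequence, and 24 carried another or none. The 36 include the zebrafish entries themselves, each of which is nearest to itself. The 24 include names without a letter, or with a letter that no zebrafish entry of that number has, which could not match. Both counts were thus partly fixed in advance, and the examples below do not depend on them. Nearness was counted from the core onward, without gaps. oan-miR-15c-5p of platypus had the miR-15b sequence of zebrafish, less its last base, and the values of dre-miR-15b-5p. ipu-miR-457b differed from dre-miR-457a by A1T alone and was listed at a mean of 1449 CPM, near the 1466 CPM of dre-miR-457a and far above the 216 CPM of dre-miR-457b-5p. Entries nearest to zebrafish miR-15a, 9 in number, had log2 fold changes from -0.01 to 0.06, while the 19 tested entries nearest to miR-15b ran from 0.16 to 0.74 with a median of 0.70. The 11 entries nearest to miR-16b ran from -0.26 to 0.02. Many of these names share their values. The distinct sets of values numbered 5 for miR-15a, 7 for miR-15b and 7 for miR-16b, and the median was taken over names.

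The level differed widely between some names of nearly the same sequence. These sequences are shown because they differ by 1 base, or in length only, from dre-miR-16b above.
hsa-miR-16-5p: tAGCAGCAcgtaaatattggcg
ppy-miR-16: tAGCAGCAcgtaaatattgg
hsa-miR-16-5p of human, which differs from dre-miR-16b by A21C, had a mean of 1676 CPM, and ppy-miR-16 of orangutan, which is dre-miR-16b without its last bases, had 580 CPM, against 4971 CPM for dre-miR-16b. ppy-miR-16 was measured at 524, 417 and 630 CPM in large fish and 696, 783 and 430 CPM in small fish, and its log2 fold change was -0.25 (limma adjusted p = 0.588). In contrast, aca-miR-15b-5p of anole lizard differed from dre-miR-15b-5p by T11A and had nearly its mean, at 59.2 against 61.8 CPM. How reads were shared among such names was not tested.

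Of 8 other families listed for the same or a similar seed, miR-497 alone had an entry, ami-miR-497-5p of alligator. Its sequence is shown here to set it beside miR-15b.
ami-miR-497-5p: cAGCAGCAcatcatggtttgt
It was measured at 7.40, 9.14 and 10.1 CPM in large fish and 7.78, 9.89 and 5.64 CPM in small fish, with overlap between the groups and a log2 fold change of 0.19 (limma adjusted p = 0.667). Its bases from 2 onward were those of miR-15b, and its values were nearly those of pbv-miR-15a-5p of python, at 7.21, 8.35 and 10.1 CPM and 7.78, 9.81 and 5.51 CPM.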

How the data were processed

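Small RNA of plasma exosomes was sequenced from 3 large fish pools and 3 small fish pools. The authors trimmed reads to 15 to 35 bases, removed other RNA classes with Bowtie, matched the rest to miRBase and the genome, and collapsed reads sharing a molecular identifier. The deposited values are CPM of each known entry, without length scaling. Column names L1 to S3 were matched to the library names in the labels. Whole reads were recovered for 100% of values above 0 from the step of each library.

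The main test was limma 3.58.1 (R 4.3.3) with a mean-variance trend on log2(CPM + 1), large minus small fish, fitted to the 1807 entries that reached 1 CPM in 3 or more libraries, with Benjamini-Hochberg adjustment over all of them. Calls needed an adjusted p up to 0.05 and a fold from 1.5 upward. Recovered counts were tested with edgeR 4.0.16 and DESeq2 1.42.0 as alternatives. Ratios within libraries were tested by exact permutation. The limma procedure was also run on simulated counts, with independent entries and the same spread around the mean in both groups. Names that share their values and groups of unequal spread were not simulated. Named entries were the zebrafish entries, the highest entry of each number, letter and arm, those that passed and those with another seed. Further entries in the comparison of names were chosen after their values were seen. The members, lists and tests were chosen with earlier results of these data known.

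Alternatives changed the pseudocount (0.1 or 10), the filter (none, or 10 CPM), the scaling (TMM or quantile), the trend, the test (edgeR's exact and quasi-likelihood tests or DESeq2, which also changed the scaling to TMM or size factors), a replicate block, the adjustment over distinct sets of values, the fold threshold, or the omission of 1 library. edgeR's bias-corrected quasi-likelihood form was chosen after seeing the data.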

Additional observations from a re-analysis of the deposited data

How the results depend on the processing

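No member was called lower under any of the 20 alternatives, while the count called higher depended on the processing. It was 2 entries (2 distinct sets of values) as reported, and 0 (0) with no filter on low values, 8 (4) after quantile normalization, 1 (1) with limma without trend, 0 (0) with edgeR's quasi-likelihood test, 2 (2) with its bias-corrected form, 12 (6) with edgeR's exact test and 13 (7) with DESeq2. These last 2 tests called 352 and 370 of all 1807 entries, and the members they gained were names nearest to miR-15b and, with DESeq2, dre-miR-16c-3p. Of all 1807 entries, 308 were called as reported, 233 after quantile normalization and 277 with limma without trend. edgeR's quasi-likelihood test called only 46 of them, and its bias-corrected form 243. With no filter, 213 of 2925 entries were called. The edgeR tests and DESeq2 changed the scaling along with the test, so the parts of each cannot be told apart in these counts. Leaving out each library gave between 0 and 6 member entries (0 and 2 sets), the 6 without L3. Over all 1807 entries these fits called between 1 (without L2) and 365 (without L3). With a replicate block 0 members were called, against 207 of all entries. There 12 members, and 580 of all entries, had an unadjusted p under 0.05 (limma). Replicate numbers were not taken as pairs. Once the mean of its group was subtracted from each entry, same-numbered libraries correlated at -0.05, -0.06 and 0.02. dre-miR-15c kept its direction under all 20 alternatives (log2 fold change 0.81 to 1.31) and its call under 10. Its adjusted p ran from 2.36e-04 to 0.112 (limma, edgeR and DESeq2). The 8 entries called after quantile normalization did not include dre-miR-15c (limma adjusted p = 0.0564). When the trend was left out of limma, the 1 entry called was ipu-miR-16c, and dre-miR-15c had an adjusted p of 0.052 (limma). ipu-miR-16c kept its direction under all 20 (0.81 to 1.83) and its call under 12. Of the ratios, that of miR-15b to miR-15a moved to -0.031 when each was represented by its entry with the highest mean (fru-miR-15b and ssa-miR-15a-5p). Since ssa-miR-15a-5p is nearest to miR-15b in sequence, this sets a miR-15b sequence against another and says nothing about miR-15a. Rare entries limit the table, as 9 to 48 counts stand behind dre-miR-15a-3p in a library.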
